A study of Mus musculus with 3 samples.

Results

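Apolipoproteins and the proteins that move lipids into and out of cells were followed in mouse dorsal root ganglia (DRGs) by single-cell RNA sequencing. The genes were Apoe, Apod, Clu, Abca1, Abcg1, Lpl and Lrp1, which were chosen by name and make up 7 of the 31053 genes in the count matrices. The study holds 3 libraries, all from male C57BL/6J mice of postnatal week 13: 1 from naïve, untreated mice, 1 taken 7 days and 1 taken 14 days after a double-sided spared nerve injury. Each library pooled the L3 and L4 DRGs of both sides from 2 mice, 8 DRGs in all, which had been dissociated with collagenase and dispase and captured with the Chromium 3′ v3 chemistry after a 40-micron strainer. All mice were perfused before dissection, bedding was fine-grained after the injury, and the 2 animals of a library cannot be told apart. With 1 library per condition there is no replicate check, so no test between conditions was possible, and every interval given here is a 95% interval for counting error alone.

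Apolipoproteins wrap lipids into particles that can travel between cells. ApoE is the main carrier made by glia and macrophages in the nervous system, ApoD is a lipocalin made by fibroblasts and Schwann cells in nerve, and clusterin (Clu) is a secreted chaperone that also rides on lipoproteins. ABCA1 and ABCG1 are membrane transporters that hand cholesterol to such particles, lipoprotein lipase (Lpl) splits the triglycerides that they carry, and LRP1 is an endocytic receptor that takes up ApoE-bearing particles.

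In the GENCODE vM21 annotation of GRCm38 (mm10), all 7 are protein-coding genes. Apoe (ENSMUSG00000002985) lies on the minus strand at chr7:19696109-19699188, and its first coding transcript has 4 exons. Apod (ENSMUSG00000022548) lies at chr16:31296192-31314808 on the minus strand with 5 exons, and Clu (ENSMUSG00000022037) at chr14:65968483-65981547 on the plus strand with 9 exons. Abca1 (ENSMUSG00000015243) spans chr4:53030787-53159895 on the minus strand with 50 exons, and Abcg1 (ENSMUSG00000024030) spans chr17:31057675-31117988 on the plus strand with 15 exons. Lpl (ENSMUSG00000015568) lies at chr8:68880491-68907448 on the plus strand with 10 exons, and Lrp1 (ENSMUSG00000040249) at chr10:127538161-127621148 on the minus strand with 89 exons. Abcg1 overlaps Gm25447 on its own strand and Lrp1 overlaps Gm16217 on the opposite strand. Whether these overlaps affect the counts was not tested. A 3′ library counts tags near the ends of transcripts, so isoforms were not told apart and levels were not compared between genes.

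RefSeq start-site windows of GRCm38.p6, from 250 bases before to 50 bases after each start, matched 4 of the 7 genes with 6 windows. The windows of Abca1 and Apoe are shown because both genes were high in satellite glial cell (SGC)-like and macrophage-like cells, and because both are textbook targets of the liver X receptor, which binds direct repeats with a spacer of 4 bases. They are written 5′ to 3′ on the minus strand, where both genes lie. In the first, the capitals mark a repeat, which read on the reverse strand is GGTTAC, 4 bases of any kind and GGTCA, and a match of TATAAA.
Abca1, chr4:53159846-53160145: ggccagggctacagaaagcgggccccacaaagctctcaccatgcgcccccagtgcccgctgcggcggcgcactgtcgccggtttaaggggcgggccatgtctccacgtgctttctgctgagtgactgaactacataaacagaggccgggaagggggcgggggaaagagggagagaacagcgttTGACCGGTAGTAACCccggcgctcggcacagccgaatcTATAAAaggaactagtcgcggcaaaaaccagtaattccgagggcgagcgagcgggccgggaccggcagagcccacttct
Apoe, chr7:19699139-19699438: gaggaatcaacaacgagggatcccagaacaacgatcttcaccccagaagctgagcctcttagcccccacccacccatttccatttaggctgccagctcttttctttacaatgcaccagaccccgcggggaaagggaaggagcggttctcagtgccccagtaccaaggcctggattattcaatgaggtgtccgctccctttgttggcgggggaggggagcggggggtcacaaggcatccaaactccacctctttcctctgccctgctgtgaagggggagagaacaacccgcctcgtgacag
The Abca1 repeat begins 67 bases and the TATAAA match 29 bases before the start site. The repeat, whose letters were chosen after the sequence was seen, occurs on either strand in 12 of 32851 RefSeq windows (0.0365%), TATAAA in 4473 (13.6%), and the perfect repeat of AGGTCA with the same spacing in 5 (0.0152%). None of the 3 motifs occurs in the Apoe window shown, the most upstream of 3. A match is a description of letters and was not tested as a binding site.

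The libraries held 3748, 3281 and 4908 barcodes with 23107376, 22343246 and 36550911 UMIs in the order naïve, day 7 and day 14, and this order is used throughout. Cells were kept from 500 genes upward and up to 20% mitochondrial UMIs, which gave 3152, 2682 and 3828 cells at a median of 3072, 4010.5 and 4199 UMIs. A marker gate placed 2884, 2440 and 3472 cells in 11 classes and left 268, 242 and 356 unassigned because fewer than 3 of a class's 6 markers were found or a second class came within 2-fold. The gate was defined by these markers, so their levels cannot check it. In the main classes they were higher inside than outside. Fabp7 stood between 7650 and 8896 CPM in SGC-like cells and between 253 and 290 CPM in all other cells. The exception was Gfra3, which was no higher in non-myelinating Schwann-like cells than outside them at day 14 (53.8 against 70.9 CPM). Libraries shared 1, 6 and 2 barcode sequences pairwise (naïve with day 7, naïve with day 14, day 7 with day 14). The injured libraries held more macrophage-like cells (67, 211 and 252, or 2.13, 7.87 and 6.58% of kept cells). They held fewer SGC-like cells (707, 460 and 608, or 22.4, 17.2 and 15.9% of kept cells). The neuron-like cells (124, 154 and 136) had a median of 67291.5, 3381.5 and 81746.5 UMIs, so the day 7 library held many shallow ones.

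**Figure D1:**
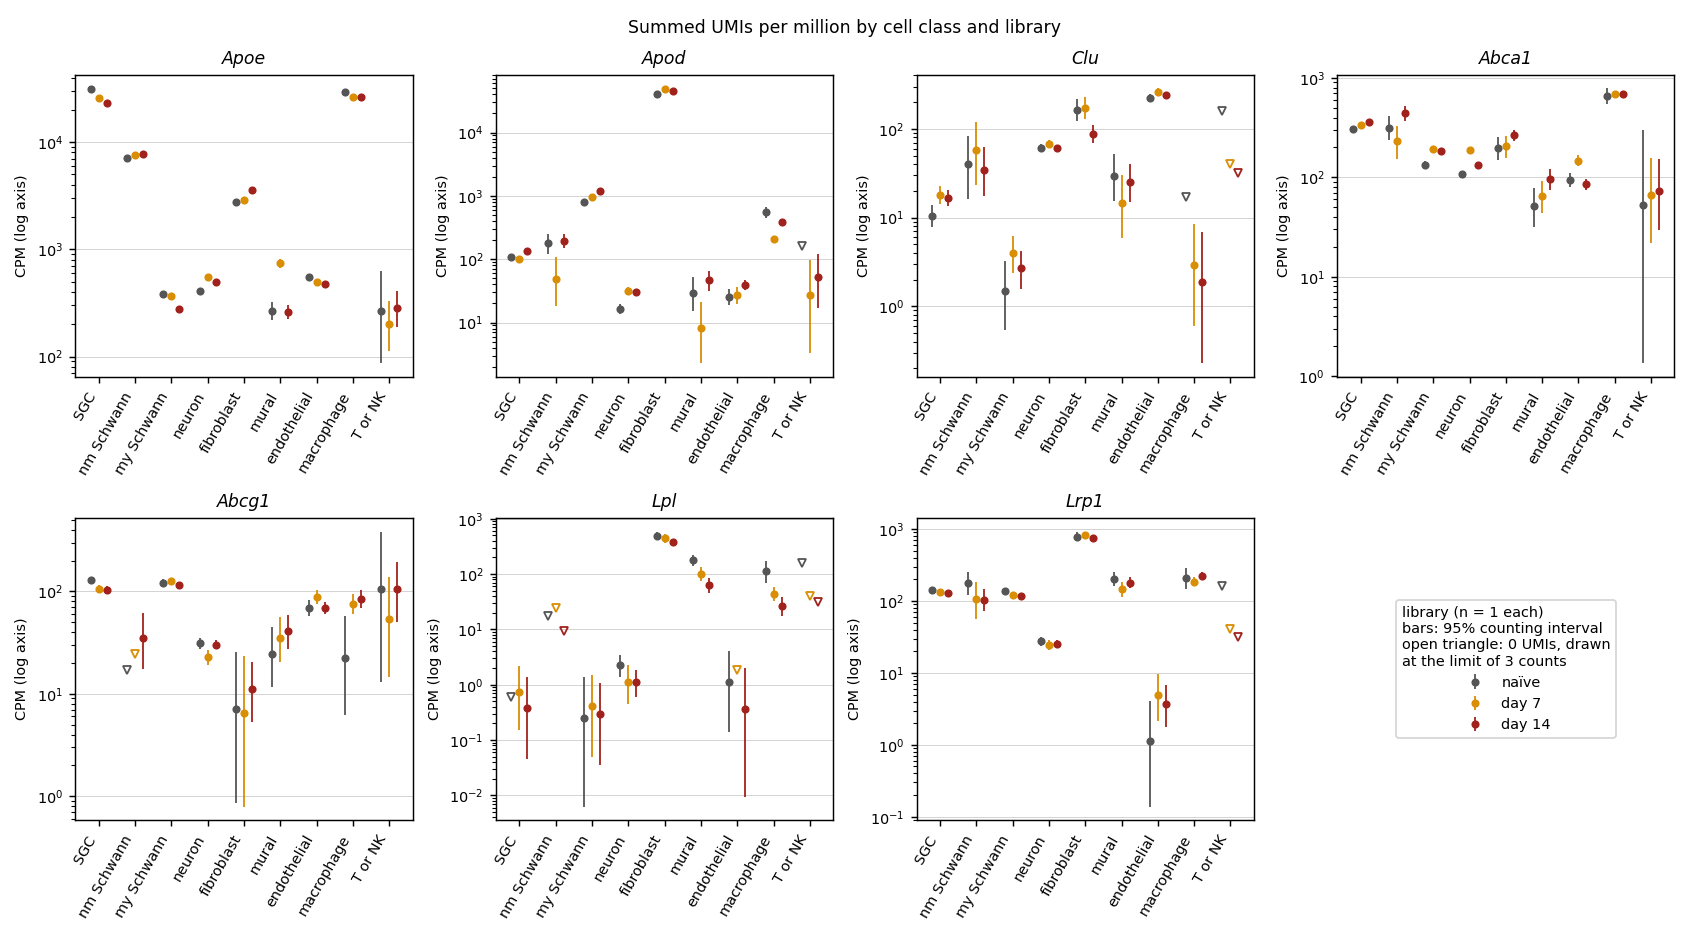
Level as summed UMIs per 1000000 UMIs (CPM, log axis) of the 7 genes in 9 cell classes of the naïve, day 7 and day 14 libraries (n = 1 library each), with 95% counting intervals as bars and open triangles at the limit that 0 UMIs allow. Apoe lies highest in SGC-like and macrophage-like cells, from 23329 CPM upward, and Apod in fibroblast-like cells, from 41059 CPM upward, in all 3 libraries.

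Apoe was carried above all by SGC-like cells, the glia that wrap sensory neurons, and by macrophage-like cells in every library. In SGC-like cells its level, the summed UMIs per 1000000 UMIs of the class (CPM), was 31602, 25520.4 and 23329 CPM, from 154631, 103362 and 123292 UMIs. In macrophage-like cells it was 29404, 26514 and 26084 CPM. By summed CPM the order of these 2 classes turned between libraries. SGC-like cells lay on top in the naïve library and macrophage-like cells at days 7 and 14. The counting intervals of the 2 classes did not overlap in any library. By the mean of per-cell CPM, macrophage-like cells lay on top in every library (30183, 28527 and 26450 CPM). SGC-like cells held 29118.5, 23490 and 21486 CPM by that measure.

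Non-myelinating Schwann-like cells came next at 7071, 7573 and 7785 CPM, and fibroblast-like cells after them at 2747, 2886 and 3537 CPM. At day 14, 1 fibroblast-like cell held 581 of the 3178 UMIs, and the level without it was 2948 CPM. By the mean of per-cell CPM the fibroblast-like levels were 3246, 3309 and 2894 CPM. Below these lay endothelial-like (548, 495 and 476 CPM), neuron-like (409, 549 and 495 CPM) and myelinating Schwann-like cells (384, 369 and 278 CPM). The neuron- and endothelial-like intervals overlapped at day 14 and were apart in the other 2 libraries.

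T or NK-like cells, which are not known as a source of ApoE, gave the free RNA level. It was 266 CPM (86.5 to 622) in the naïve library, 202 CPM (113 to 332) at day 7 and 284 CPM (187 to 413) at day 14, from 5, 15 and 27 UMIs in 8, 20 and 31 cells. Neutrophil-like cells held 223 CPM in the naïve library and 370.2 CPM at day 14. At day 7 they stood at 3675 CPM, but 196 of the 206 UMIs lay in 1 cell, and the level without that cell was 215 CPM. The level of myelinating Schwann-like cells lay within the T or NK-like interval in the naïve and day 14 libraries and just above it at day 7, whereas endothelial- and neuron-like cells lay above it at days 7 and 14. Barcodes with fewer than 500 genes, which can also be damaged glia, held 2145, 2888 and 3205 CPM.

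Mural-like cells lay within the T or NK-like interval once 1 cell was set aside. Their Apoe level was 268, 739 and 262 CPM, and at day 7 it came to 202 CPM once the 1 cell with 260 of the 354 UMIs was left out. Among the B-like cells of day 7, 92 of 93 Apoe UMIs likewise lay in 1 of 5 cells, and the other libraries held 396 and 331 CPM. These single cells give the 3 values of Apoe that were over 2-fold higher at day 7 (mural-, neutrophil- and B-like, log2 ratios 1.46, 4.04 and 3.87), where 2.88%, 11.7% and 7.02% of all genes with at least 20 UMIs were that much higher.

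The share of cells with an Apoe UMI was 99.9, 99.8 and 100% among SGC-like and 100, 100 and 97.6% among macrophage-like cells. Thinned to 2000 UMIs per cell, which kept 676, 457 and 599 SGC-like cells, the SGC-like share was 99.9, 99.8 and 99.9%. Myelinating Schwann-like cells came to 37.8, 36.2 and 36.4% after thinning (921, 1023 and 1454 cells, median depths before thinning of 2510, 3604 and 3609 UMIs). T or NK-like cells came to 56.5, 31.9 and 43.9% on only 6, 17 and 27 cells (median depths 2266.5, 3502 and 2850.0). The share in myelinating Schwann-like cells was below that of T or NK-like cells in the naïve and day 14 libraries and above it at day 7, on few T or NK-like cells, and the part of free RNA in it was not tested.

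In neuron-like cells Apoe came with Fabp7, the fatty acid binding protein that marks SGCs. There were 2.01, 1.63 and 1.57 Apoe UMIs per Fabp7 UMI in neuron-like cells and 3.55, 2.91 and 3.05 in SGC-like cells. Endothelial-like cells held 9.59, 9.50 and 5.78 and macrophage-like cells 259.9, 289.9 and 243. Neuron-like cells thus held less Apoe per Fabp7 UMI than the SGC-like cells did, and endothelial- and macrophage-like cells held more. The Fabp7 level itself was 204, 338 and 315 CPM in neuron-like, 57.1, 52.1 and 82.4 CPM in endothelial-like and 113, 91.5 and 107 CPM in macrophage-like cells. The part of attached glia or free RNA in the neuron-like values was not tested.

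Compared with the naïve library, Apoe was lower in SGC-like cells at both times, by a log2 CPM ratio of -0.31 [-0.32 to -0.30] at day 7 and -0.44 [-0.45 to -0.43] at day 14. The difference did not reach 2-fold, and no replicate shows whether it is larger than the spread between animals. Macrophage-like cells were lower by a smaller margin, with ratios of -0.15 [-0.19 to -0.11] and -0.17 [-0.22 to -0.13], and at day 7 the sign turned to 0.11 when classes were taken from clusters. Neuron-like cells were higher, at 0.43 [0.36 to 0.49] and 0.28 [0.22 to 0.34], although the mean of per-cell CPM turned the day 14 ratio to -0.15.

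Neuron-like cells were also grouped by the highest of Tac1, Nefh and Mrgprd, which mark peptidergic, large myelinated and non-peptidergic neurons. The split was made after the values were seen. By summed CPM, the groups did not all share that higher level of the injured libraries. Cells with Tac1 highest (59, 33 and 69 cells) were lower at both times, at 684, 564 and 611 CPM with ratios of -0.28 [-0.38 to -0.18] and -0.16 [-0.24 to -0.09]. The median of their per-cell CPM was higher at both times, at 193, 710 and 312 CPM, so the direction depended on the measure. Those with Nefh highest (21, 29 and 44 cells) held 399, 621 and 473 CPM, and those with Mrgprd highest (37, 45 and 16 cells) held 135, 354 and 262 CPM. The share of each group in the class thus differed between libraries along with its Apoe level. Without the cell with the most Apoe UMIs in each group and library, the levels were 606, 497 and 526 CPM with Tac1, 362, 543 and 357 CPM with Nefh and 129, 213 and 136 CPM with Mrgprd highest, so that at day 14 the Nefh and Mrgprd groups lay close to naïve. The 47 shallow cells of day 7 with none of the 3 genes held 342 Apoe UMIs.

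The mitochondrial share of UMIs in SGC-like cells moved with the libraries, at a median of 13.4%, 15% and 15.6%, and 158, 175 and 305 further SGC-like cells exceeded the limit of 20%. Apoe was therefore also read within ranges of that share, which were chosen after the values were seen. Between 10% and 15% its level was 31541, 20986 and 20020.3 CPM in 381, 217 and 255 cells, and between 15% and 20% it was 35827, 30213 and 26326 CPM in 223, 229 and 350 cells. In the cells above 20%, which the filter had removed, it was 31529, 24949 and 23753 CPM. The naïve library had the highest level within each of these 3 ranges. Log2 ratios over naïve lay at -0.59 and -0.66 in the lower of them, -0.25 and -0.44 in the next and -0.34 and -0.41 above 20%. At most 10%, only 14 SGC-like cells were left at day 7 and 3 at day 14 against 103 in the naïve library, which is too few to read.

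**Figure D2:**
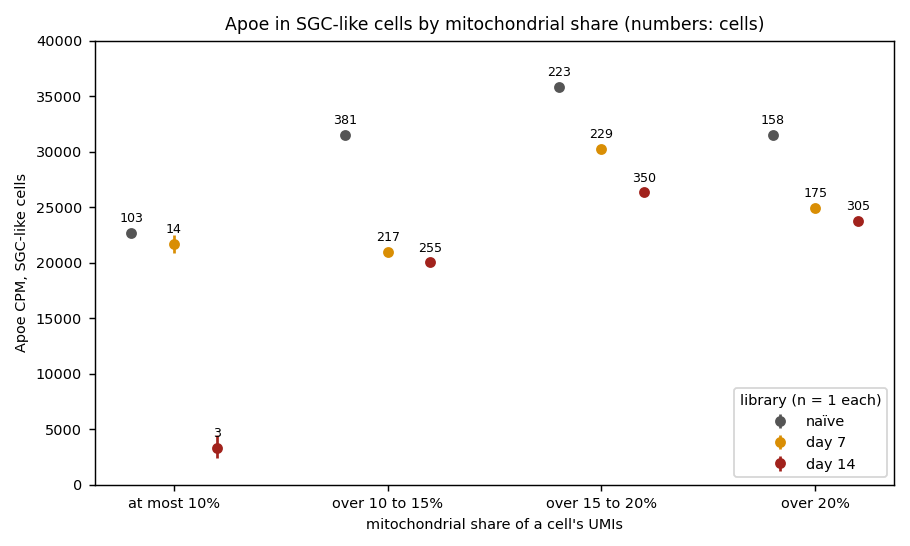
Apoe level (CPM, linear axis from 0) in SGC-like cells by the mitochondrial share of a cell's UMIs, for the naïve, day 7 and day 14 libraries (n = 1 each), with 95% counting intervals and the number of cells above each point. The naïve library lies highest in the 3 ranges above 10%, and the day 14 point at the far left rests on 3 cells.

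Clustering split the SGC-like cells into groups with unequal Apoe levels. A cluster led by Fabp7 and Acsbg1 held 43934, 36119 and 32635 CPM and one led by Ednrb and Egr3 held 18045, 15177 and 14149.9 CPM. Another, led by the interferon response genes Isg15 and Ifi27l2a, held 27054, 16261 and 15578 CPM, on 161, 33 and 25 cells. The level differed more between the first pair of clusters than between libraries, and within each of the 3 clusters it was highest in the naïve library. Clusters were built from genes of the same cells, so these levels are a description.

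Macrophage-like cells were not uniform either. Cells with an Mrc1 UMI and no Ccr2 UMI, the profile of resident macrophages, held 34384, 30716 and 30196 CPM of Apoe, and those with both or neither held 16806, 22822 and 19056 CPM. The few cells with Ccr2 and without Mrc1 (11, 14 and 9 cells) held 29712, 12845 and 17285 CPM, with ratios of -1.21 [-1.35 to -1.07] and -0.78 [-0.95 to -0.62], so in the naïve library they lay near the class level. A small cluster led by Cd209a, H2-Ab1 and Ccr2, genes of antigen-presenting cells that arise from monocytes, held only 565, 1166 and 200.1 CPM on 15, 19 and 42 cells. The main cluster, led by C1qa, C1qb and Csf1r, held 32614, 28922 and 27745 CPM.

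Macrophage-like cells were more numerous in the injured libraries, and they held more of the ganglion's Apoe RNA there. SGC-like cells held 87.5, 70.8 and 69.1% of the Apoe UMIs of kept cells and macrophage-like cells 2.94, 18.9 and 15.5%. Over all kept cells Apoe stood at 8318, 7320.1 and 5521 CPM, with log2 ratios of -0.18 [-0.19 to -0.17] and -0.59 [-0.60 to -0.58]. In such whole-ganglion values, fewer cells of a type and less RNA per cell cannot be told apart.

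**Figure D3:**
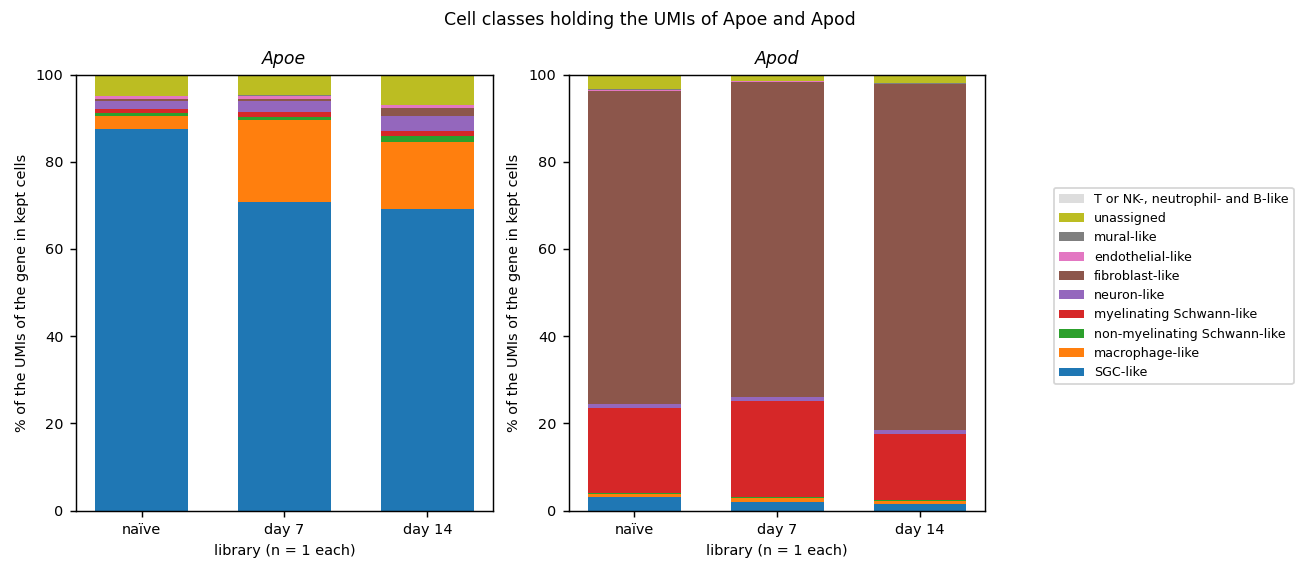
Percent of the Apoe UMIs (left) and Apod UMIs (right) of kept cells that lay in each cell class, as stacked bars for the naïve, day 7 and day 14 libraries (n = 1 each). The macrophage-like part of Apoe is 2.94% in the naïve and 18.9% in the day 7 library, and fibroblast-like cells hold over 70% of Apod in all 3.

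Apod had its highest level in fibroblast-like cells in every library, as Lpl and Lrp1 also did. Fibroblast-like cells held 41059, 49092 and 45543 CPM, more than 4% of all their UMIs, and 71.9, 72.1 and 79.3% of the Apod UMIs of each library came from them although they numbered only 87, 73 and 182 cells. Over naïve, their log2 ratios were 0.26 [0.22 to 0.29] and 0.15 [0.12 to 0.18], the second of which became -0.04 with the mean of per-cell CPM. Cells with a Cldn11 UMI, a tight-junction gene of the barrier-forming sheath, held less Apod (16258, 14486 and 22921 CPM, on 13, 12 and 30 cells) than the other fibroblast-like cells (52613, 55499 and 51364 CPM).

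Myelinating Schwann-like cells were second, at 787, 963 and 1176 CPM, and were higher in both injured libraries with log2 ratios of 0.29 [0.23 to 0.36] and 0.58 [0.52 to 0.64]. The gene was concentrated in 1 side of this class. Cells with a UMI of Lox or Mfap5, genes of the extracellular matrix, held 1374, 1624 and 1914 CPM, and those without held 159.98, 207 and 188 CPM. The cells with such a UMI made up 42.2, 43.4 and 47.9% of the class and were deeper (medians 3098, 4468 and 4341 against 2220, 3175 and 3044 UMIs). In the Lox- or Mfap5-bearing cells the ratios over naïve were 0.24 [0.17 to 0.31] and 0.48 [0.42 to 0.54], and in the others 0.37 [0.16 to 0.58] and 0.24 [0.03 to 0.44].

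In macrophage-like cells Apod was lower in the injured libraries, at 554, 206 and 386 CPM from 98, 214 and 409 UMIs, with ratios of -1.43 [-1.78 to -1.07] and -0.52 [-0.84 to -0.19]. The day 7 value passed 2-fold, as 3.91% of all genes with at least 20 UMIs did downward in these cells. In the cells with Mrc1 and without Ccr2, most of the class, the level was 533, 275 and 507 CPM, with ratios of -0.96 [-1.40 to -0.50], short of 2-fold, and -0.07 [-0.47 to 0.35], which includes 0. Non-myelinating Schwann-like cells also passed it at day 7 on 31 against 6 UMIs (-1.85 [-3.40 to -0.57], where 4.83% of genes did), but the sign turned to 0.16 with classes from clusters, and at day 14 the ratio was 0.12 [-0.52 to 0.79]. SGC-like cells held 107, 100 and 137 CPM and neuron-like cells 16.3, 31.5 and 30.3 CPM. T or NK-like cells, which should lack the gene, held 0 Apod UMIs among the naïve cells, for a limit of 159.9 CPM, and 26.9 and 52.5 CPM in the others. The neuron-like levels lay within the counting intervals of the T or NK-like ones at days 7 and 14.

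Over all kept cells Apod stood at 766, 1046 and 1596 CPM, a log2 ratio of 1.06 [1.03 to 1.09] at day 14, where 5.83% of all genes were at least 2-fold higher. The day 14 library held 182 fibroblast-like cells against 87 in the naïve one, and within fibroblast-like cells the ratio was only 0.15.

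Clu, the clusterin gene, had its highest level in endothelial-like cells at 222, 260.3 and 239 CPM, with fibroblast-like cells at 165, 173 and 87.9 CPM and neuron-like cells at 61.5, 68.4 and 61.4 CPM. The counting intervals of the endothelial- and fibroblast-like levels overlapped in the naïve library and were apart at days 7 and 14. Within endothelial-like cells, those with a Slc2a1 UMI and no Plvap UMI, the profile of barrier vessels, held 255, 337 and 309.8 CPM, and those with a UMI of the fenestration gene Plvap held 188, 214 and 179 CPM. The endothelial-like ratios over naïve were 0.23 [0.03 to 0.43] and 0.10 [-0.08 to 0.29].

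In fibroblast-like cells the day 14 library was lower, at -0.91 [-1.45 to -0.36], while day 7 was level with naïve at 0.07 [-0.53 to 0.66]. The ratio at day 14 became -0.29 without a filter on cells. Most Clu came from the Cldn11-bearing cells, which held 464, 835 and 218 CPM on 42, 40 and 40 UMIs, against 25.7, 50.2 and 54.6 CPM in the rest, which at day 14 held 39 of the 79 UMIs. At day 7, 1 cell held 25 of the 53 UMIs of the class.

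Neuron-like cells with Nefh, a neurofilament of large myelinated neurons, as the highest of Nefh, Tac1 and Mrgprd held 111, 111 and 93.9 CPM of Clu. Those with Mrgprd highest, which marks non-peptidergic nociceptors, held 31.5, 46.4 and 21.8 CPM, and those with Tac1 highest, which marks peptidergic ones, held 73.6, 58.4 and 59.0 CPM. By summed CPM the levels thus ran in the order Nefh, Tac1, Mrgprd in every library. Without the top cell of each group they were 85.8, 87.6 and 68.5 CPM with Nefh highest. They were 68.2, 47.9 and 54.9 CPM with Tac1 and 28.7, 37.9 and 17.9 CPM with Mrgprd highest. By the share of cells with a Clu UMI, the day 7 order of the first pair turned, at 44.8% with Nefh and 60.6% with Tac1 highest. Their median depths were 36242 and 56399 UMIs.

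SGC-like cells held little Clu, 10.4, 18.0 and 16.7 CPM from 51, 73 and 88 UMIs, with ratios of 0.79 [0.25 to 1.34] and 0.68 [0.16 to 1.20]. The higher values sat in the cells without a Pou3f1 or Egr3 UMI (11.5, 27.3 and 29.1 CPM), while the cells with one held 10.000, 11.2 and 6.51 CPM. Between 10% and 15% of mitochondrial UMIs the SGC-like ratio was 0.97 at day 7 and -0.07 at day 14, and between 15% and 20% it was 0.10 and 0.80, so neither time differed evenly. Myelinating Schwann-like cells held 6, 19 and 18 UMIs of Clu and passed 2-fold at day 7 (1.41 [0.03 to 3.02], where 1.21% of genes did). Macrophage-like cells held 0, 3 and 2 UMIs, the 0 allowing up to 17.0 CPM.

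Abca1 had its highest level in macrophage-like cells, at 656, 683 and 686 CPM, and differed little between libraries there (0.06 [-0.23 to 0.35] and 0.07 [-0.22 to 0.36], both intervals including 0). Macrophage-like cells with Mrc1 and without Ccr2 held 814, 858 and 860.2 CPM, and those with Ccr2 and without Mrc1 held 137, 199.6 and 186 CPM on 3, 17 and 6 UMIs. Non-myelinating Schwann-like cells (315, 229 and 440.1 CPM) and SGC-like cells (307, 337 and 359 CPM) came next, with overlapping intervals in all 3 libraries. Fibroblast-like cells held 197, 205 and 264 CPM.

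In SGC-like cells Abca1 was slightly higher in the injured libraries, opposite in sign to Apoe, with ratios of 0.14 [0.03 to 0.24] and 0.23 [0.13 to 0.33]. Its share of thinned SGC-like cells with a UMI was 42.5, 45.6 and 48.1%. Under a stricter filter of 1000 genes and 10% mitochondrial UMIs, which left 14 SGC-like cells at day 7, that library's ratio was -0.09. Myelinating Schwann-like cells held 134, 194 and 183 CPM, with ratios of 0.54 [0.38 to 0.69] and 0.45 [0.31 to 0.60], and their thinned share was 22.2, 29.4 and 28.1%. T or NK-like cells, on 1, 5 and 7 Abca1 UMIs, came to 13.3, 16.1 and 16.8%.

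Abca1 differed most between libraries, among the neuron groups with at least 50 UMIs in each, in cells with Nefh highest. Their level was 71.2, 393 and 221 CPM, from 92, 653 and 821 UMIs in 21, 29 and 44 cells, with ratios of 2.46 [2.15 to 2.80] and 1.63 [1.32 to 1.96]. Leaving out the 1 cell with the most Abca1 in each library gave 63.1, 363 and 209 CPM. Cells with Tac1 highest held 106, 114 and 91.6 CPM and those with Mrgprd highest 127, 109 and 108 CPM, so both stayed within a narrow range while the Nefh group did not.

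This split was chosen after the values were seen, and the genes that define it can themselves differ with injury, so a cell of one group in the naïve library and its counterpart in an injured one need not be of the same type. A cluster led by the injury genes Sprr1a, Gal, Sox11 and Atf3 held 11, 133 and 45 cells and 103, 418 and 242 CPM of Abca1, whereas a cluster with Tac1 and Calca among its leading genes held 85.8, 99.1 and 69.6 CPM and one with Mrgprd 133, 119 and 107 CPM. The injury-gene cluster of the naïve library thus lay near the other neuron-like clusters, and its day 7 and day 14 cells lay above them. Over the whole neuron-like class the level was 108, 189 and 133 CPM, with ratios of 0.81 [0.68 to 0.93] and 0.30 [0.19 to 0.42]. The day 7 class included 47 cells with none of the 3 genes, a median of 1229 UMIs and 36 Abca1 UMIs in all (412 CPM). Apoe stood at 379, 889 and 499 CPM in the injury-gene cluster, and the part of attached glia in its Abca1 values was not tested.

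**Figure D4:**
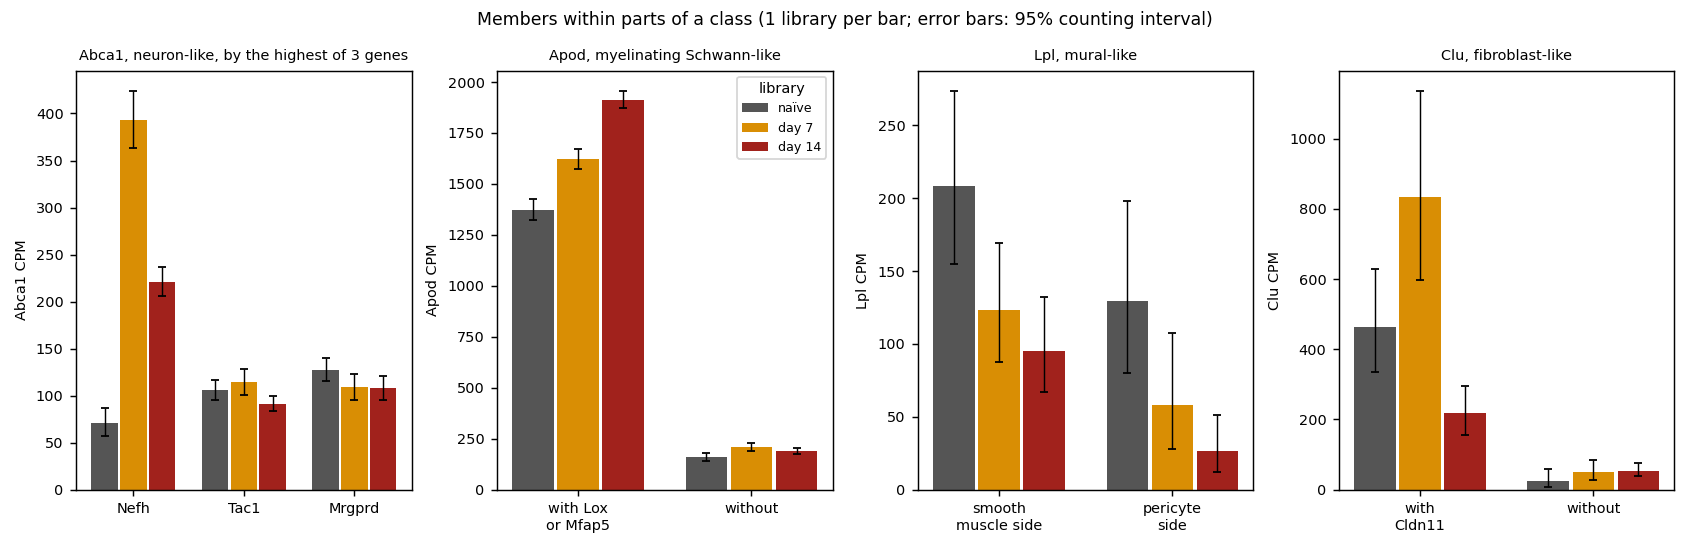
Level (CPM, linear axes from 0) of Abca1 in neuron-like cells by the highest of Nefh, Tac1 and Mrgprd, of Apod in myelinating Schwann-like cells with or without a Lox or Mfap5 UMI, of Lpl on the smooth muscle and pericyte sides of mural-like cells, and of Clu in fibroblast-like cells with or without a Cldn11 UMI. Each bar is 1 library with its 95% counting interval, and of the 3 neuron groups only the Nefh group shows Abca1 above 200 CPM.

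Endothelial-like cells held 94.3, 147 and 85.7 CPM of Abca1 and were higher at day 7 alone (0.64 [0.35 to 0.94] against -0.14 [-0.43 to 0.16] at day 14). Mural-like cells held 51.6, 64.7 and 96.8 CPM from 21, 31 and 69 UMIs, of which the smooth muscle side held 1, 14 and 13. Abca1 was not over 2-fold different from naïve in any whole class at either time.

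Abcg1, the partner of Abca1 in cholesterol export, had another distribution. Among the classes with at least 20 Abcg1 UMIs in each library, its highest levels were in SGC-like cells (129, 105 and 103 CPM) and myelinating Schwann-like cells (121, 126 and 116 CPM), whose intervals overlapped in all 3 libraries. T or NK-like cells, the free RNA reference for Apoe, held 107, 53.8 and 105 CPM from 2, 4 and 10 UMIs, as high as SGC-like cells at day 14 and with overlapping intervals in all 3 libraries. SGC-like cells were lower in the injured libraries (-0.29 [-0.47 to -0.11] and -0.32 [-0.49 to -0.16]), and the ratio was negative at both times within each range of mitochondrial share above 10%, from -0.51 to -0.27. Myelinating Schwann-like cells differed by 0.05 [-0.12 to 0.23] and -0.07 [-0.23 to 0.10].

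In macrophage-like cells Abcg1 was higher in the injured libraries, at 22.6, 76.1 and 84.9 CPM from 4, 79 and 90 UMIs in 67, 211 and 252 cells. The ratios, 1.75 [0.34 to 3.66] and 1.91 [0.50 to 3.81], have wide intervals because the naïve library held few UMIs. In the background of that class 9.36% and 11.4% of all genes were at least 2-fold higher, so a value past 2-fold was common there. With classes from clusters, which add the Cd209a-led cells, the ratios came down to 0.76 and 0.84. Among cells with Mrc1 and without Ccr2 there were 0, 28 and 43 UMIs, where 0 sets a limit of 27.1 CPM, and the levels were 47.2 CPM at day 7 and 63.8 CPM at day 14.

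Endothelial-like cells held 69.1, 88.6 and 69.2 CPM of Abcg1 and neuron-like cells 31.4, 22.7 and 30.3 CPM. In each library the Tac1-highest neurons held the most (49.4, 42.8 and 41.6 CPM), against 30.2, 12.0 and 23.1 CPM with Nefh highest and 13.1, 9.62 and 14.6 CPM with Mrgprd highest. In the Nefh group, where Abca1 was higher at days 7 and 14, Abcg1 was not. Non-myelinating Schwann-like cells held 0, 0 and 11 UMIs of Abcg1.

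Lpl was found mainly in 3 classes, and its level was lower in both injured libraries in each of them. Fibroblast-like cells held 499, 443 and 376 CPM, mural-like cells 177, 100.2 and 63.1 CPM and macrophage-like cells 113, 44.3 and 26.4 CPM. The UMIs behind these were 142, 136 and 338 in fibroblast-like, 72, 48 and 45 in mural-like and 20, 46 and 28 in macrophage-like cells. At days 7 and 14 the intervals of the 3 classes did not overlap, whereas mural- and macrophage-like levels overlapped in the naïve library.

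Over naïve, the fibroblast-like ratios were -0.17 [-0.52 to 0.18] and -0.41 [-0.69 to -0.11]. Mural-like cells came to -0.82 [-1.38 to -0.27] and -1.49 [-2.06 to -0.93], the latter past 2-fold, as were 2.19% of genes in these cells. Macrophage-like cells passed it at both times with -1.35 [-2.14 to -0.52] and -2.10 [-2.98 to -1.19], where 3.91% and 4.3% of genes did. The signs of these 6 ratios were negative under every alternative setting tried. Over all kept cells, where the day 14 library held more fibroblast-like cells, Lpl stood at 12.4, 12.2 and 13.7 CPM with ratios of -0.02 [-0.28 to 0.23] and 0.15 [-0.07 to 0.38], both intervals including 0.

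Both sides of the mural-like class were lower. The smooth muscle side, with more Acta2 and Myh11 than Rgs5, Kcnj8 and Abcc9 UMIs, held 208, 123 and 95.3 CPM. Its ratios were -0.75 [-1.40 to -0.12] and -1.13 [-1.79 to -0.48]. The pericyte side held 129, 58.4 and 26.8 CPM. Its ratios were -1.15 [-2.40 to 0.003], an interval that includes 0, and -2.27 [-3.58 to -1.08]. Thinned to 2000 UMIs, 26.2, 13.3 and 9.02% of 82, 83 and 145 mural-like cells held an Lpl UMI, against 0 UMIs in the T or NK-like cells of all 3 libraries. The smooth muscle side made up 44.2, 46.7 and 36.0% of the class. In fibroblast-like cells the gene sat in those without a Cldn11 UMI (716, 506 and 463 CPM). Macrophage-like cells with Mrc1 and without Ccr2 held 118, 21.9 and 22.2 CPM on 13, 13 and 15 UMIs. At day 7, 1 macrophage-like cell held 15 of the 46 UMIs, and the level without it was 29.95 CPM.

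Elsewhere Lpl was near absent. SGC-like cells held 0, 3 and 2 UMIs and myelinating Schwann-like cells 1, 2 and 2, in libraries where 0 UMIs in SGC-like cells allow up to 0.613 CPM. Neuron-like cells held 19, 7 and 14 UMIs, whose ratios of -1.03 [-2.52 to 0.28] and -1.01 [-2.11 to 0.07] were past 2-fold with intervals that include 0 (2.08% and 1.46% of genes were that much lower in the class). Non-myelinating Schwann-, T or NK-, neutrophil- and B-like cells held 0 UMIs in all 3 libraries.

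Lrp1 differed little between libraries. Fibroblast-like cells held 787, 815 and 740.04 CPM, macrophage-like cells 209, 185 and 223 CPM and mural-like cells 201, 146 and 179.5 CPM. SGC-like cells held 143, 133 and 129.8 CPM, myelinating Schwann-like cells 137, 119.9 and 117 CPM and non-myelinating Schwann-like cells 178, 107 and 104 CPM. The order began with fibroblast-like cells in each library, and the levels of the other 5 classes lay between 104 and 223 CPM.

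Among the 7 classes with at least 20 Lrp1 UMIs in both libraries together, none was 2-fold different from naïve, and 11 of the 14 class-by-time intervals included 0. The exceptions were myelinating Schwann-like cells at both times (-0.19 [-0.36 to -0.02] and -0.23 [-0.39 to -0.07]) and non-myelinating Schwann-like cells at day 14 (-0.76 [-1.52 to -0.01]). Neuron-like cells held 27.5, 24.4 and 25.3 CPM and endothelial-like cells only 1.14, 4.96 and 3.66 CPM, from 2, 8 and 10 UMIs, too few to be counted. T or NK-like cells held none in any library, which allows up to 159.9, 40.3 and 31.5 CPM. Most genes with at least 20 UMIs were likewise within 2-fold of naïve in the 7 counted classes. At day 7, 1.5% of them were at least 2-fold higher and 0.854% lower in SGC-like cells. In macrophage-like cells 9.36% were higher and 3.91% lower. The share of intervals that include 0 was not counted over all genes.

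Of the 77 pairs of a gene and a class, 48 held at least 20 UMIs in the naïve and day 7 libraries together, and 5 of these were at least 2-fold higher and 4 at least 2-fold lower at day 7. At day 14, 50 pairs were counted, 1 of them higher and 3 lower. The day 14 pairs were Abcg1 in macrophage-like cells upward and Lpl in mural-, macrophage- and neuron-like cells downward, and the background share of each is given beside its value above. The median log2 ratio over the counted pairs was 0.06 at day 7 and 0.03 at day 14, and the median over all genes lay within 0.1 of 0 in the classes from SGC-like to macrophage-like cells. Without the top cell of each class, 2 pairs were higher at day 7, a setting for which the share of all genes was not counted.

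**Figure D5:**
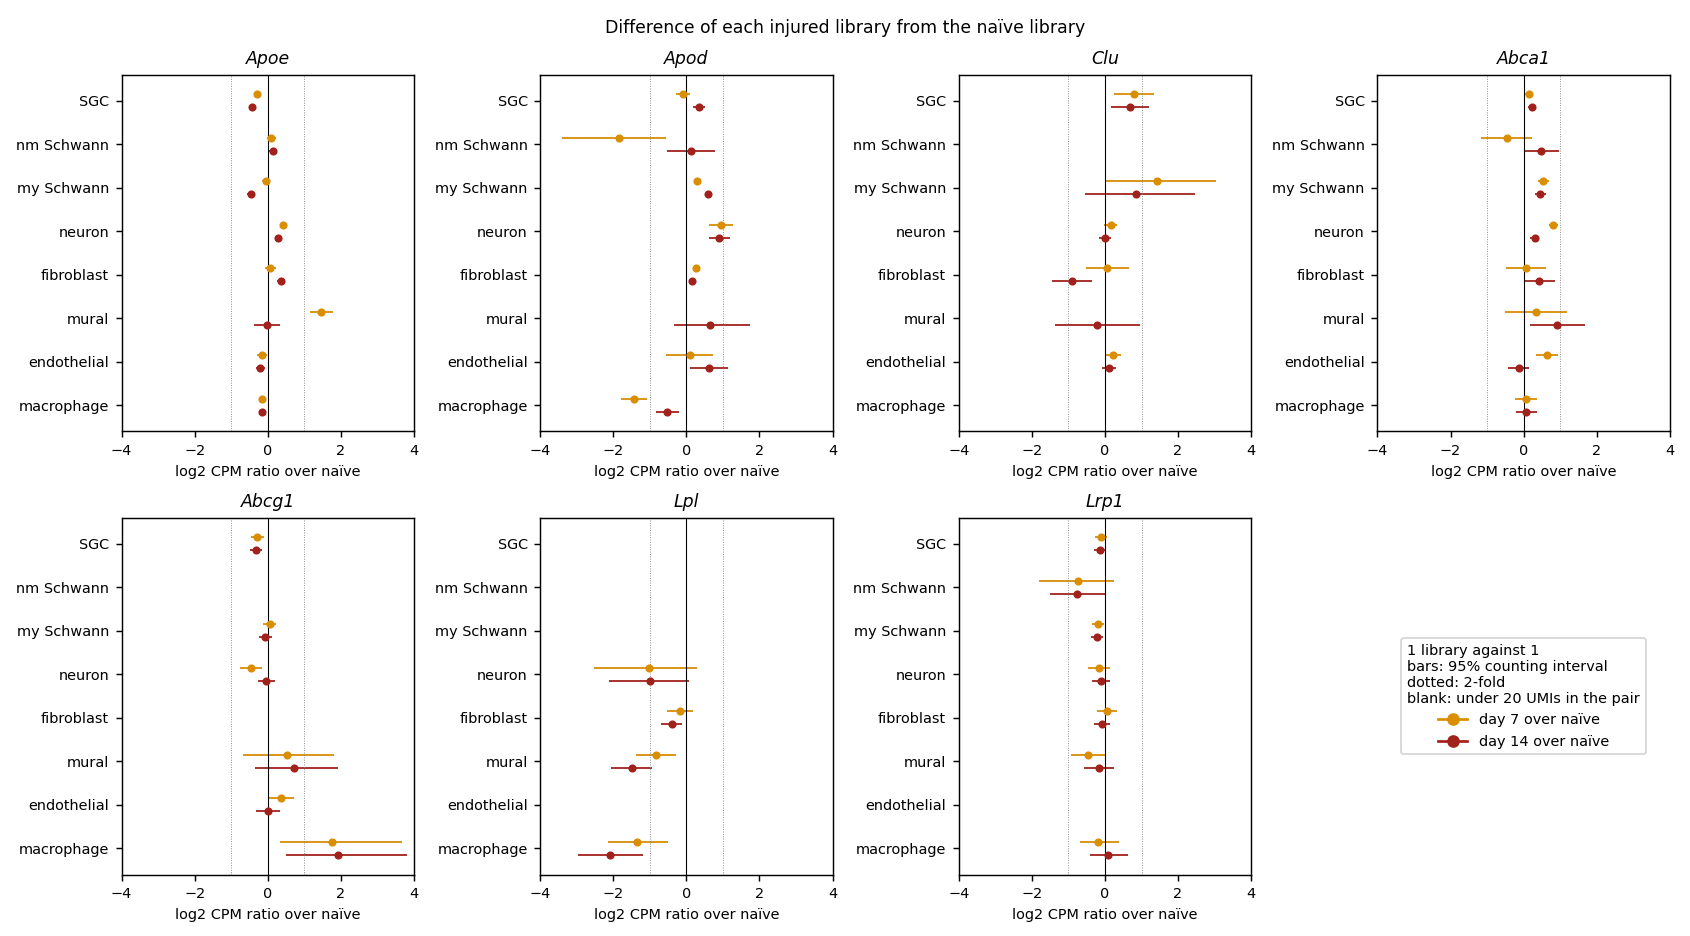
Log2 CPM ratio of the day 7 and day 14 libraries over the naïve library for the 7 genes in 8 cell classes, 1 library against 1, with 95% counting intervals as bars and dotted lines at 2-fold. Pairs under 20 UMIs are blank. Lpl lies left of 0 in every class shown and Lrp1 close to 0, while the Apoe point of mural-like cells at day 7 rests on 1 cell.

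Other genes of lipid transport were counted from a list of 58 apolipoproteins, receptors, transporters, lipases and regulators. Over the 11 classes together, 52 of them held at least 50 UMIs, among them 5 of 11 apolipoproteins, and 38 had their highest level in the same class in all 3 libraries. That class was endothelial-like for 9, neuron-like for 8, SGC-like for 7 and macrophage-like for 5. The same counts were not made over all genes, so they do not set the listed genes apart. Within a class, a listed gene was called when it held at least 50 UMIs and was at least 2-fold from naïve in the same direction at both times. None of 42 such genes was called in SGC-like cells and none of 40 in myelinating Schwann-like cells. There, 0.333% and 0.436% of all genes were past that fold at both times upward and 0.25% and 0.199% downward. In these shares of all genes, here and below, a gene without a UMI in the naïve library counted as higher. A gene without any in both injured libraries counted as lower. Listed genes of either kind were left uncalled, so the shares are a looser count. None of 11 was called in non-myelinating Schwann-like cells (0.96% of all genes upward, 1.04% downward), none of 16 in mural-like cells (1.06% and 0.22%) and none of 21 in fibroblast-like cells (2.04% and 0.823%). The median log2 ratios of the listed genes were -0.10 and 0.01 in SGC-like cells, against 0.00 and 0.01 over all genes.

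Among endothelial-like cells 1 of 35 genes was called lower (0.321% of all genes). It was Gpihbp1, the protein that holds lipoprotein lipase on the capillary wall, at 315, 123 and 120.1 CPM with ratios of -1.35 [-1.60 to -1.12] and -1.39 [-1.59 to -1.19]. It was lower in the Plvap-bearing cells (411, 155 and 176 CPM) and in those with Slc2a1 and no Plvap (183, 46.7 and 31.8 CPM). Abca8a, a transporter, was the 1 endothelial-like gene called higher (0.759% of all genes), at 9.71, 21.7 and 28.2 CPM. This gene is abundant in non-myelinating Schwann-like cells (3911, 3532 and 2339.6 CPM), and its part as free RNA in the endothelial-like values was not tested.

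In neuron-like cells 1 of 39 genes was called, Vldlr, a receptor for ApoE-bearing particles and reelin, which was higher (2.74% of all genes passed upward and 0.484% downward). Its level was 11.1, 29.8 and 30.6 CPM, with ratios of 1.42 [1.06 to 1.79] and 1.46 [1.13 to 1.80]. As with Abca1, the Nefh-highest neurons showed the wider difference, at 14.7, 59.0 and 48.2 CPM, and the Tac1-highest neurons were higher by less (15.1, 27.2 and 29.98 CPM). The Mrgprd-highest neurons held 5.53, 6.12 and 7.51 CPM, with intervals of both ratios that include 0. SGC-like cells hold far more Vldlr (397, 464 and 523 CPM), and the part of attached SGCs in the neuron-like values was not tested. In macrophage-like cells 2 of 26 genes were called higher, and none lower, where 6.45% of all genes passed upward and 1.48% downward. These were Scarb1, the receptor for high-density lipoprotein, on 1, 19 and 34 UMIs with ratios of 1.69 [-0.96 to 7.07] and 2.50 [-0.07 to 7.85], and Abca3, a lipid transporter, on 4, 51 and 76 UMIs with 1.12 [-0.33 to 3.05] and 1.66 [0.25 to 3.58]. Both Scarb1 intervals and the day 7 interval of Abca3 include 0.

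Some listed genes are given because they bear on the 7, and were chosen after their values were seen. Apoc1, which lies next to Apoe in the apolipoprotein cluster of chromosome 7, had its highest level in SGC-like cells in all 3 libraries, at 71.7, 42.7 and 41.6 CPM, with ratios of -0.75 [-1.02 to -0.48] and -0.79 [-1.03 to -0.54]. Trem2, a macrophage receptor that binds ApoE, stood at 209, 414 and 372 CPM in macrophage-like cells (0.98 [0.50 to 1.51] and 0.83 [0.34 to 1.36]). Nr1h2 and Nr1h3 encode the liver X receptors. In SGC-like cells Nr1h2 stood at 49.0, 39.3 and 42.0 CPM and Nr1h3 at 9.61, 10.4 and 8.70 CPM, and in macrophage-like cells Nr1h2 stood at 84.8, 50.1 and 49.97 CPM and Nr1h3 was found with 1, 2 and 5 UMIs.

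The genes whose levels followed each member most closely were sought over 27 class-by-library values, among 12801 genes with at least 200 UMIs, by Pearson's r of log2(CPM + 1). The values share libraries and classes, so r is a description. The closest to Apoe were 0610040J01Rik (r = 0.911), Pmepa1 (0.890) and Slc13a3 (0.874), and to Apod Igfbp6 (0.927), Vit (0.925) and Nipal1 (0.919). Osmr (0.921), Mapk12 (0.911) and Hoxb5 (0.894) lay closest to Clu, and P2rx4 (0.884), Scpep1 (0.883) and C4b (0.872) to Abca1. For Lpl they were C2 (0.963), Colec12 (0.960) and P2ry14 (0.945), and for Lrp1 they included Sgce (0.899) and Sh3pxd2b (0.895). Abcg1 had the loosest neighbours in Rpa2 (0.747), Taf7 (0.736) and Slc26a11 (0.729). Among the 7 themselves, Apoe and Abca1 were the closest pair (r = 0.813), while Abca1 and Abcg1 showed none of this likeness (r = -0.01).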

How the data were processed

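DRG cells of 3 pooled libraries were sequenced after 10x Chromium 3′ v3 capture. The authors deposited raw UMI counts per gene and cell barcode as sparse matrices, made with Cell Ranger 3.0.2 on mm10 per the submitters' processing notes. The annotation release is not given in the sources used here. Of 31053 gene IDs, 30934 matched GENCODE vM21.

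Here, a barcode was kept from 500 genes upward if mitochondrial genes held no more than 20% of its UMIs. A cell was given the class with the most UMIs of its 6 markers, provided that at least 3 markers were found and that it led the next class 2-fold. Counts were summed per class and library and divided by all UMIs (CPM). Exact Poisson, Clopper-Pearson and conditional binomial intervals at 95% cover counting error only, and the limit for a count of 0 is 3 counts. Shares were thinned to 2000 UMIs. Doublets were scored with Scrublet (90 of 9662 cells, 0.931%; 48 in the gate) and left in. Clusters were made with scanpy 1.11.5 and leidenalg 0.10.2, and 97.3% of 8796 gated cells lay in a cluster of their own class. TMM factors came from edgeR 4.0.16. Scripts were tested on simulated data.

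All 7 genes were reported in every class. Listed genes were named where at least 2-fold from naïve the same way at both times with at least 50 UMIs, and 3 genes of like pattern were named per member, except 1 that is not reported here. Members, markers and lists were chosen with earlier results of these data known, and splits within classes after their values were seen. Alternatives covered cell filters, doublets, clusters, a stricter gate (4 markers, 3-fold), scaling and single cells.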

Additional observations from a re-analysis of the deposited data

Results flagged for a closer look

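For 3 genes, 2 classes lay on opposite sides of the naïve library at both times, with counting intervals that left out 0. Each class and time rests on 1 library, and the difference between classes was not tested. The share of all genes with such opposite signs was not counted, so the flag does not set these 3 genes apart.

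Apoe was higher than naïve in neuron-like cells (log2 CPM ratios of 0.43 at day 7 and 0.28 at day 14), although the day 14 ratio was -0.15 by the mean of per-cell CPM. The neurons with Tac1 highest were lower by summed CPM (684, 564 and 611) and higher by the median of per-cell CPM (193, 710 and 312). The groups of neurons also differed in number between libraries (37, 45 and 16 cells with Mrgprd highest). Apoe was lower in SGC-like cells (-0.31 and -0.44), endothelial-like cells (-0.15 and -0.20) and macrophage-like cells (-0.15 and -0.17). The macrophage-like ratio at day 7 turned to 0.11 with classes from clusters. In the naïve library the endothelial- and neuron-like levels (548 and 409 CPM) lay within the T or NK-like interval (86.5 to 622 CPM).

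Apod was higher in myelinating Schwann-like cells (0.29 and 0.58), neuron-like cells (0.95 and 0.89) and fibroblast-like cells (0.26 and 0.15), and lower in macrophage-like cells (-1.43 and -0.52). In the macrophage-like cells with Mrc1 and without Ccr2 the day 14 Apod ratio was -0.07 [-0.47 to 0.35], which includes 0. The neuron-like Apod levels lay within the intervals of the T or NK-like ones at days 7 and 14.

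Abcg1 was higher in macrophage-like cells (1.75 and 1.91, on 4 naïve UMIs) and lower in SGC-like cells (-0.29 and -0.32).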

How the results depend on the processing

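Under 9 alternatives that changed 1 choice at a time, 765 of 876 log2 CPM ratios stayed within the reported counting interval, 104 moved outside it and 7 reversed after being past 2-fold. Of 463 values whose reported interval left out 0, 14 changed sign. The cause was not tested unless named. No paired analysis was possible because a single library stands for each condition, and no replicate could be left out for the same reason. Leaving out the cell with the most UMIs of a gene, the ranges of mitochondrial share and the minimum of 20 cells per class were chosen after seeing the data.

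The reversals were the high Apoe values of day 7 in mural-like cells (-0.76 under a strict filter of 1000 genes and 10% mitochondrial UMIs, -0.31 without Scrublet doublets, -0.22 without the top cell), neutrophil-like cells (-0.046 with classes from clusters) and B-like cells (-1.61 with the stricter gate, -1.55 without the top cell), and the low Apod value of day 7 in non-myelinating Schwann-like cells (0.16 with classes from clusters, which put other clusters into that class).

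Apoe in SGC-like cells stayed lower than naïve throughout. Its ratios at day 7 and day 14 were -0.29 and -0.45 with classes from clusters, -0.27 and -0.37 with the stricter gate, -0.28 and -0.41 without mitochondrial UMIs in the total, and -0.33 and -0.48 with TMM scaling. They were -0.067 and -2.78 under the strict filter, which left 98, 14 and 3 cells. By mitochondrial range they were -0.59 and -0.66 at 10 to 15%, -0.25 at day 7 for 15 to 20%, and -0.34 and -0.41 above 20%.

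The count of pairs at least 2-fold higher at day 7 was 1 under the strict filter, 3 with the stricter gate, 2 without the top cell, 14 with no minimum on UMIs and 9 at a fold of 1.5. The count lower at day 7 was 7 with no minimum. At day 14 the higher count was 2 with no filter and with the strict one. It was 3 with clusters, with the mean of per-cell CPM and without the top cell. It was 4 with the stricter gate, 11 with no minimum and 9 at a fold of 1.5. The lower count was 5 under the strict filter and at a fold of 1.5. The share of all genes past the fold was not counted under these settings, so the counts do not set these genes apart.

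The free RNA level of Apoe was 2145, 2888 and 3205 CPM by barcodes with fewer than 500 genes. By neutrophil-like cells it was 3675 CPM at day 7, of which 1 cell held most, and 166 CPM at day 14 without the top cell. Other wide moves were Apod and Apoe in neuron-like cells at day 7 by the mean of per-cell CPM, which weights shallow cells equally (4.45 and 1.79), Clu in SGC-like cells at day 7 under the strict filter (3.41) and Lpl in mural-like cells at day 14 (-2.63 under that filter).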
